A study of Mus musculus with 3 samples.

Results

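The SR splicing factors are a family of RNA-binding proteins named for a tail rich in serine and arginine, and 10 genes of the family were followed here: Srsf1, Srsf2, Srsf3, Srsf4, Srsf5, Srsf6, Srsf7, Srsf9, Srsf10 and Srsf11. They were taken by symbol from the 55536 annotated genes of the tables and joined by gene identifier to every gene and transcript table. The 10 genes have 85 annotated isoforms, of which 29 are typed as protein coding, 26 as retained intron, 15 as targets of nonsense-mediated decay and 15 as processed transcript without a coding frame. All 10 passed the filter on low values.

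RNA was taken from the chromatin fraction of macrophages grown from the bone marrow of C57BL/6J mice and exposed to Lipid A at 100 ng/ml during 40 min. Lipid A, the lipid anchor of bacterial endotoxin, is sensed by Toll-like receptor 4. The libraries were sequenced as total RNA after depletion of ribosomal RNA, in 1 group of 3 biological replicates. Replicate 1 started from 1 µg of RNA, replicate 2 from 250 ng and replicate 3 from 500 ng. The labels give each replicate its own biosample but name 1 donor entry for all, with sex and age not collected. An untreated control, another time or another fraction was not analysed here, so genes were compared within a library and isoforms within a gene. P-values measure the spread between these libraries, with the variance of each gene drawn toward a trend over all genes tested. Each SE given with a tested log2 value is moderated in the same way, and for variable genes it understates the spread of the 3 libraries.

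SR proteins bind short exonic sequences through RNA recognition motifs and recruit spliceosome components through the arginine- and serine-rich tail, which SRPK and CLK kinases phosphorylate. Many of their own genes carry a highly conserved "poison" exon with an early stop codon, or an intron that can stay in the transcript. Transcripts with such an exon are degraded by nonsense-mediated decay once translated, while transcripts that keep an intron are often held in the nucleus. RNA on chromatin is mostly young and partly unspliced. Reads from the intron of an unfinished transcript and reads from a finished isoform that keeps this intron cannot be told apart in these tables.

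Total expected counts, the authors' estimates of reads per gene, were 12699813, 18280033 and 18087091 in replicates 1, 2 and 3. Levels are given in TPM, an abundance scaled for transcript length and depth that allows genes to be set side by side. The reference gene is the median over the 8765 nuclear genes for proteins that reached 1 TPM on average, and it lay at 7.56, 6.64 and 6.56 TPM. Macrophage markers summed to between 731 and 811 TPM per library, with 7 of 8 called higher than the reference gene. The summed markers of neutrophils, B cells, erythroid cells and fibroblasts stayed at or under 1.20 TPM in each library, and those of T cells at or under 4.37, most of it Cd4.

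Most SR genes stood well above the median expressed gene on chromatin, with Srsf5 and Srsf11 far above it. Together with Srsf3 these genes held most of the family's RNA. Of the 10 genes 8 were called higher, that is above a band of 2-fold around the reference gene, and 0 lower, while Srsf1 and Srsf9 were called neither (limma treat, adjusted p under 0.05). Without adjustment 1 gene, Srsf9, had a p under 0.05 on the low side. Among all 18400 genes tested 15.1% were called higher and 52.5% lower. The median log2 difference from the reference gene was 2.41 over the 10 genes and -1.74 over all genes tested. In these bulk libraries the level per cell and the number of cells that carry an RNA cannot be told apart.

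Srsf5 encodes a factor with paired RNA recognition motifs, formerly SRp40, and had the highest level. Its TPM was 508, 394 and 529 in replicates 1, 2 and 3. These values rest on 11947, 13361 and 17768 expected counts. Replicate 2 was the lowest, and even there the level was 59.3 times that of the reference gene. The log2 difference was 6.08 ± 0.16 (SE, n = 3; limma treat, Benjamini-Hochberg adjusted p = 3.3e-05).

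Srsf11 encodes p54, an SR-related factor that contacts the branch-site machinery protein U2AF. Its TPM was 301, 203 and 242 in replicates 1, 2 and 3, and the log2 difference from the reference gene was 5.13 ± 0.14 (SE; adjusted p = 3.3e-05, limma treat). Srsf3 encodes the smallest factor of the family, which also serves as an adaptor for mRNA export. Its TPM was 110, 70.7 and 88.1, with a log2 difference of 3.66 ± 0.14 (SE; adjusted p = 7.4e-05, limma treat). Both genes were lowest in replicate 2 and highest in replicate 1. Summed over the family the level was 1148, 820 and 1031 TPM, of which Srsf5 gave 47.8% ± 3.5 (SD, n = 3), Srsf11 24.8% ± 1.4 and Srsf3 8.93% ± 0.60.

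Srsf2, Srsf7, Srsf6 and Srsf10 formed a middle tier around 36.2 to 39.9 TPM. Srsf2 encodes SC35, the classic marker protein of nuclear speckles, and its level was 45.5, 38.1 and 36.3 TPM. Srsf7 encodes 9G8, which has a zinc knuckle and, like Srsf3, helps to export mRNA, and had 49.5, 30.3 and 38.2. These neighbours changed places between libraries, since Srsf7 was above Srsf2 in replicates 1 and 3 and below it in replicate 2. Srsf6, formerly SRp55, had 44.4, 27.3 and 37.0. Srsf10 encodes SRp38, a factor that represses splicing when it is dephosphorylated, and had 53.4, 28.9 and 26.3. Srsf10 was the member with the highest replicate 1 relative to the other libraries. Its order with Srsf6 also turned in replicate 3, the mean log2 gap between them being 0.05 ± 0.39 (SD, n = 3), while Srsf6 stayed below Srsf7 in every library by 0.12 ± 0.06. The 4 log2 differences from the reference gene were between 2.30 and 2.51, and each was called higher (adjusted p from 0.00024 to 0.00098, limma treat).

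Srsf4, which encodes the largest factor of this group with paired motifs, SRp75, had a TPM of 18.4, 16.4 and 20.2 and was called higher by 1.39 ± 0.13 log2 units (SE; adjusted p = 0.022, limma treat). This call was lost without replicate 3 (adjusted p = 0.17) and with a pseudocount of 1 (adjusted p = 0.052, limma treat). Srsf1 encodes SF2/ASF, the founding member of the family, and had 14.8, 10.04 and 11.3 TPM. Each library lay above the reference gene, by 0.78 ± 0.14 log2 units, which did not pass the test of a 2-fold band (adjusted p = 1.00, limma treat). Srsf9 encodes SRp30c, which has a short serine-arginine tail, and was the only member under the reference gene in every library. Its TPM was 2.76, 1.96 and 3.09 on 37, 40 and 50 expected counts, a log2 difference of -1.40 ± 0.19 (SE) that missed the threshold (adjusted p = 0.067, limma treat). The family thus spanned from 0.379 times the reference gene for Srsf9 to 67.5 times for Srsf5. With reference genes from a mean TPM of 5, Srsf4, Srsf6, Srsf7 and Srsf10 were not called (adjusted p from 0.064 to 1.00, limma treat) and Srsf9 was called lower; with a band of 4-fold, Srsf4, Srsf6 and Srsf10 were not called. In the order of mean levels 7 of the 9 gaps between neighbours were in the same direction in all 3 libraries and larger than their SD; the exceptions were Srsf2 with Srsf7 and Srsf6 with Srsf10.

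**Figure D1:**
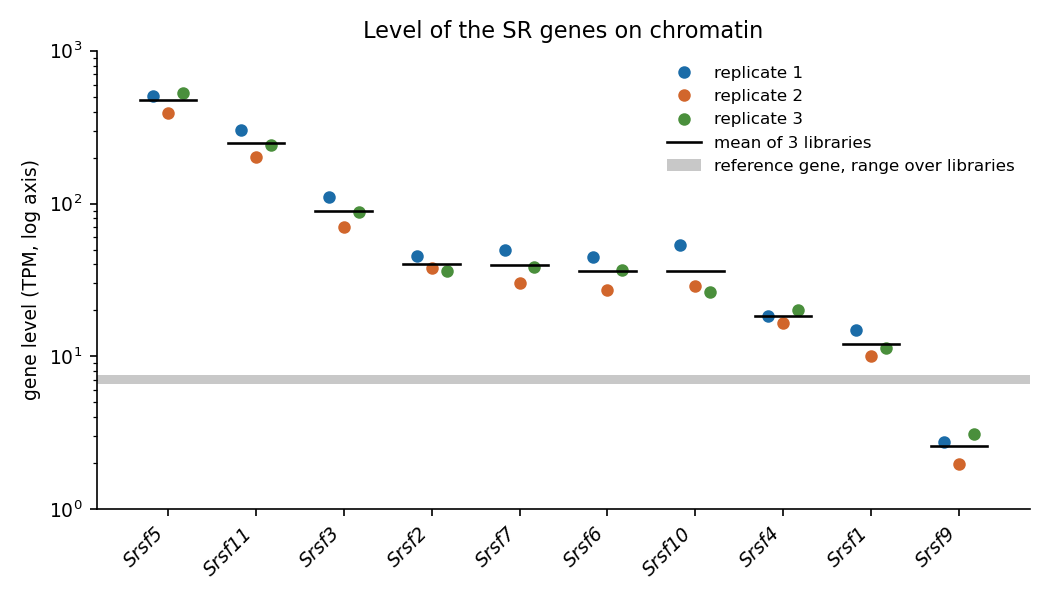
Gene level in TPM (log axis) of the 10 SR genes in each of the 3 libraries, with the mean as a black line and the range of the reference gene over the libraries as a grey band. Srsf5 (lowest 394) and Srsf11 (lowest 203) lie far above the band in every library, and Srsf9 is the only gene under the band.

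Genes whose proteins work with SR proteins were examined from lists chosen by function. Of 22 SR-related proteins and coactivators 19 were called higher than the reference gene and 2 lower, with a median log2 difference of 3.58. For these and the following lists, the shares over all genes tested were 15.1% higher and 52.5% lower. The highest were Rsrp1, an arginine- and serine-rich protein, with 384 ± 115 TPM (SD, n = 3), Luc7l2, a U1 snRNP-associated factor, with 349 ± 87.7, and Rbm25, a regulator of splice site choice, with 320 ± 49.3. The 2 called lower were Srsf12, a further SR gene, with 0, 0.02 and 0 TPM in replicates 1, 2 and 3, and Srek1ip1 with 0.923 ± 0.414. All 9 genes for SR protein kinases and for the import receptor Tnpo3 were called higher, led by Clk1 with 297 ± 94.1, Prpf4b with 73.6 ± 5.3 and Clk3 with 60.8 ± 8.4. The machinery of nonsense-mediated decay and the exon junction complex stood nearer to the reference gene. Of its 14 genes 4 were called higher, 2 lower and 8 neither, with a median log2 difference of 0.50. Smg1, the kinase that phosphorylates the decay factor Upf1, led with 109 ± 4.7 TPM, ahead of Smg9 with 34.9 ± 4.9 and Smg6, an endonuclease, with 24.6 ± 0.5. Smg8 with 1.51 ± 0.42 and Magoh, a core component of the exon junction complex, with 1.55 ± 0.84 were called lower. Of 3 export genes Nxf1, the main mRNA export receptor, was called higher at 133 ± 7.5 TPM, its partner Nxt1 lower at 0.160 ± 0.115, and the adaptor Alyref neither at 4.32 ± 0.37.

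Isoforms annotated as retained intron made up a large part of most SR genes. By TPM in the alignment-based table, whose column layout is that of estimates from aligned reads, Srsf11, Srsf3 and Srsf7 had the highest shares. Srsf5, the most abundant gene, had only 8.84% ± 1.30 (SD, n = 3) of its transcript TPM in coding isoforms. The 8 genes with at least 1 retained-intron isoform had a median share of 54.8% ± 2.1 (SD over 3 libraries) in this table. Over all 5826 genes with both isoform types and at least 1 TPM the median share was 40.2%, with quartiles of 23.5% and 56.9%. Srsf9 and Srsf10 have no retained-intron isoform in the annotation. Isoforms of a gene overlap, so their TPM are the authors' estimates of how shared reads divide.

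The retained-intron share of Srsf11 was 94.1%, 88.2% and 90.7% in replicates 1, 2 and 3, and 75 of the 5826 genes had a mean share at or above its own. Srsf3 had 78.6%, 82.6% and 79.9%, and Srsf7 had 82.2%, 80.2% and 76.6%, with 277 and 294 genes at or above them. These 3 genes held their high share in every library, with no library under 76.6%. Srsf6 followed with 63.2%, 60.7% and 56.8%, then Srsf2 with 49.5%, 44.6% and 49.4% and Srsf5 with 51.1%, 42.7% and 47.1%. Srsf1, with 37.1%, 47.7% and 32.6%, and Srsf4, with 32.8%, 25.5% and 24.6%, had the lowest shares of the 8. Srsf1-203, the more abundant retained-intron isoform of Srsf1 with a mean of 2.80 TPM, has 0 bases outside the exons of coding isoforms. It keeps an intron of 378 bases that 1 of the 3 coding isoforms removes. The order changes when expected counts, which do not scale for isoform length, replace TPM. Srsf11 with 90.04% ± 4.10 (SD, n = 3) and Srsf3 with 85.8% ± 2.3 stayed highest, but Srsf5 then had 77.5% ± 1.8, above Srsf7 with 74.0% ± 3.7. By counts Srsf4 had 42.8% ± 6.6 and Srsf1 had 9.18% ± 3.78. Of the 5826 genes 372 had a mean share at or above that of Srsf5, and the median over all genes was 24.1%.

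**Figure D2:**
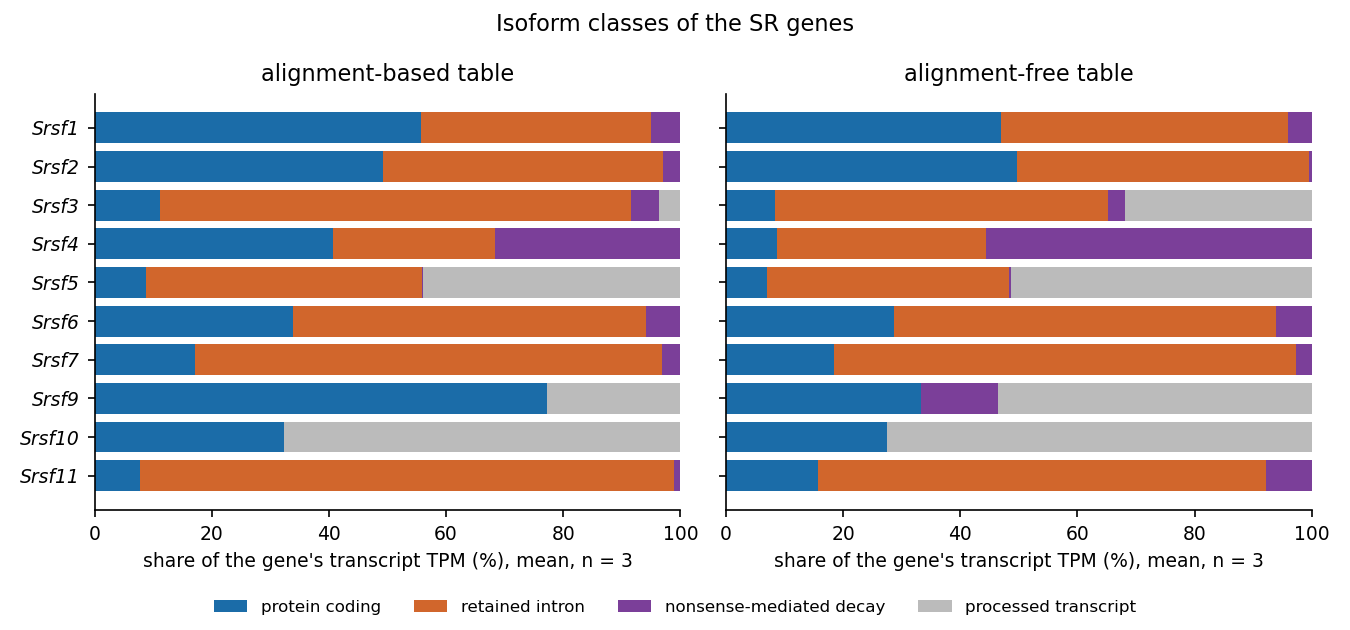
Mean share (%, n = 3) of each annotated isoform class in the transcript TPM of every SR gene, in the alignment-based table (left) and the alignment-free table (right). Retained-intron isoforms fill most of Srsf3, Srsf6, Srsf7 and Srsf11 in both tables, while the coding and decay-type parts of Srsf4 differ between the tables.

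The balance of the 2 classes was tested within each gene as the log2 ratio of summed retained-intron TPM to summed coding TPM. Of 8 genes 4 were called above an equal balance by more than 2-fold and 0 below, also without adjustment, against 9.70% above and 16.7% below among 5691 genes tested. The median log2 ratio was 1.52 over the 8 genes and -0.27 over all genes tested. Srsf11 had 283, 179 and 219 TPM in retained-intron isoforms and 12.8, 22.1 and 20.0 in coding isoforms. Its log2 ratio was 3.64 ± 0.28 (moderated SE, n = 3, adjusted p = 0.00066, limma treat), with an SD of 0.74 over the libraries. The coding part of this gene was lowest in replicate 1, where the retained-intron part was highest. Srsf3 had 86.8, 58.3 and 70.4 TPM against 15.2, 6.01 and 9.82, a log2 ratio of 2.86 ± 0.19 (adjusted p = 0.00061, limma treat). Srsf5 had 260, 168 and 249 TPM against 52.5, 32.5 and 41.9, a log2 ratio of 2.41 ± 0.16 (adjusted p = 0.00077, limma treat). Srsf7 had 40.7, 24.3 and 29.3 TPM against 7.32, 5.01 and 7.71, a log2 ratio of 2.21 ± 0.18 (adjusted p = 0.0025, limma treat). In each of these 4 genes the retained-intron part exceeded the coding part in all 3 libraries.

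The other 4 genes were called neither. Srsf6 had a log2 ratio of 0.83 ± 0.18 (SE), above 0 in 3 of 3 libraries. Srsf2 was close to an even split, with 22.5, 16.96 and 17.9 TPM in its retained-intron isoform and 21.8, 20.5 and 16.7 in coding isoforms. Srsf1 had a log2 ratio of -0.50 ± 0.27 and Srsf4 of -0.55 ± 0.25. With expected counts in place of TPM, which removes the scaling for isoform length, 4 genes were above and 1 below (9.03% and 46.3% of all genes tested). The gene below was Srsf1, with a log2 ratio of -3.34 (adjusted p = 0.00064, limma treat). Its retained-intron isoforms have 759 and 645 bases.

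In the lists of SR partners, 6 of 19 testable SR-related genes were called above an equal balance and 1 below, beside the 9.70% and 16.7% of all genes. Of 9 kinase and import genes 1, Clk1, was above and 0 below, also without adjustment, a share above near that of all genes. Of 7 testable genes of decay and the exon junction complex 1 was above, Smg9 with 2.52 ± 0.21 (SE), and 2 below, Smg6 with -2.48 ± 0.23 and Smg1 with -1.87 ± 0.16. Of 2 export genes 0 were above, also without adjustment, and 1 below, Nxf1 with -4.51 ± 0.20 (adjusted p = 9.4e-05, limma treat). The one SR-related gene below was Pnn, a speckle protein, with -2.22 ± 0.21. The highest log2 ratios were those of Rsrp1 with 7.88 ± 0.44 (moderated SE), U2af1, the small subunit of U2AF, with 4.15 ± 0.34, and Tra2a, an SR-like activator of splicing, with 3.78 ± 0.19 (adjusted p = 0.00013, 0.00068 and 0.00014, limma treat). Their SD over the libraries was 1.29, 0.90 and 0.30.

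The isoforms behind these shares keep different parts of the genes. Srsf5-212 was the leading isoform of Srsf5, with 196, 119 and 193 TPM in replicates 1, 2 and 3, and it is 2720 bases long. It keeps intron 5 of 7, a stretch of 1229 bases at chr12:80947866-80949094 (mm10, plus strand) that all 5 coding isoforms splice out. All 3 retained-intron isoforms of Srsf5 hold this intron. Srsf5-209 had 37.4, 31.3 and 32.6 TPM and also keeps introns 2 and 7, and Srsf5-207 had 26.3, 17.4 and 23.1 TPM and also keeps intron 4. The leading coding isoform, Srsf5-202, had 37.3, 13.7 and 19.5 TPM and was highest in replicate 1.

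Srsf7-207 led Srsf7 with 22.4, 13.3 and 16.9 TPM and keeps intron 3 of 7, with 874 bases at chr17:80204388-80205261 (minus strand), which all 4 coding isoforms remove. Srsf6-204 led Srsf6 with 28.0, 16.6 and 21 TPM and keeps intron 2 of 5, with 1283 bases at chr2:162932143-162933425 (plus strand). Srsf3-204 had 35.9, 23.3 and 24.5 TPM and keeps introns 3 and 4 of 5, of which intron 3 has 2150 bases at chr17:29038625-29040774 (plus strand). Srsf2-203 led Srsf2 and keeps intron 2 of 2, with 1059 bases at chr11:116850962-116852020 (minus strand). Its coding counterpart Srsf2-201 had 20.3, 17.6 and 14.7 TPM. These introns carry the splice sites that the coding isoforms use, and their donor sites are shown because the classes part at these positions. Each line gives the last 3 exon bases and the first 6 intron bases, with the first 2 bases of the intron in capitals.
Srsf5 intron 5 donor: cagGTttgt
Srsf7 intron 3 donor: cagGTattt
Srsf6 intron 2 donor: gcaGTgagt
Srsf3 intron 3 donor: cagGTactt
Srsf2 intron 2 donor: atgGTaatg
All 5 begin with GT, and 3 of them follow an exon that ends in cag. The acceptor sites end in AG, shown here with 16 bases before and 3 after for the 2 introns that several coding isoforms of a gene all remove.
Srsf5 intron 5 acceptor: taattgtcttgtgttaAGgat
Srsf7 intron 3 acceptor: ttctaacttaaaaaatAGgtc

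Other abundant isoforms of this class hold only part of an intron. Srsf3-210, the leading isoform of Srsf3 with 36.2, 24.2 and 35.3 TPM, lies to 96.0% outside the exons of the coding isoform and ends inside an intron. None of the 11 retained-intron isoforms of Srsf11 holds a whole intron of the leading coding isoform. The leading one, Srsf11-213, had 68.0, 51.8 and 60.1 TPM with 16.0% of its 2952 bases intronic, and Srsf11-208 had 72.0, 43.2 and 55.2 TPM with 82.3% intronic. Srsf4-201, the single isoform of this class in Srsf4, had 6.04, 4.19 and 4.96 TPM, and its intronic part is also partial. Of the 10 genes 6 were led by a retained-intron isoform in the alignment-based table and 3 by a coding isoform, while Srsf10 was led by a processed transcript. In the alignment-free table a retained-intron isoform led 4 genes, and 1 was led by a coding isoform (Srsf1), 4 by a processed transcript and 1 by a decay-type isoform (Srsf4). Leading isoforms were not counted over all genes, so these counts have no share to be set against. Of the 85 isoforms 8 were at 0 in every library of both tables.

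**Figure D3:**
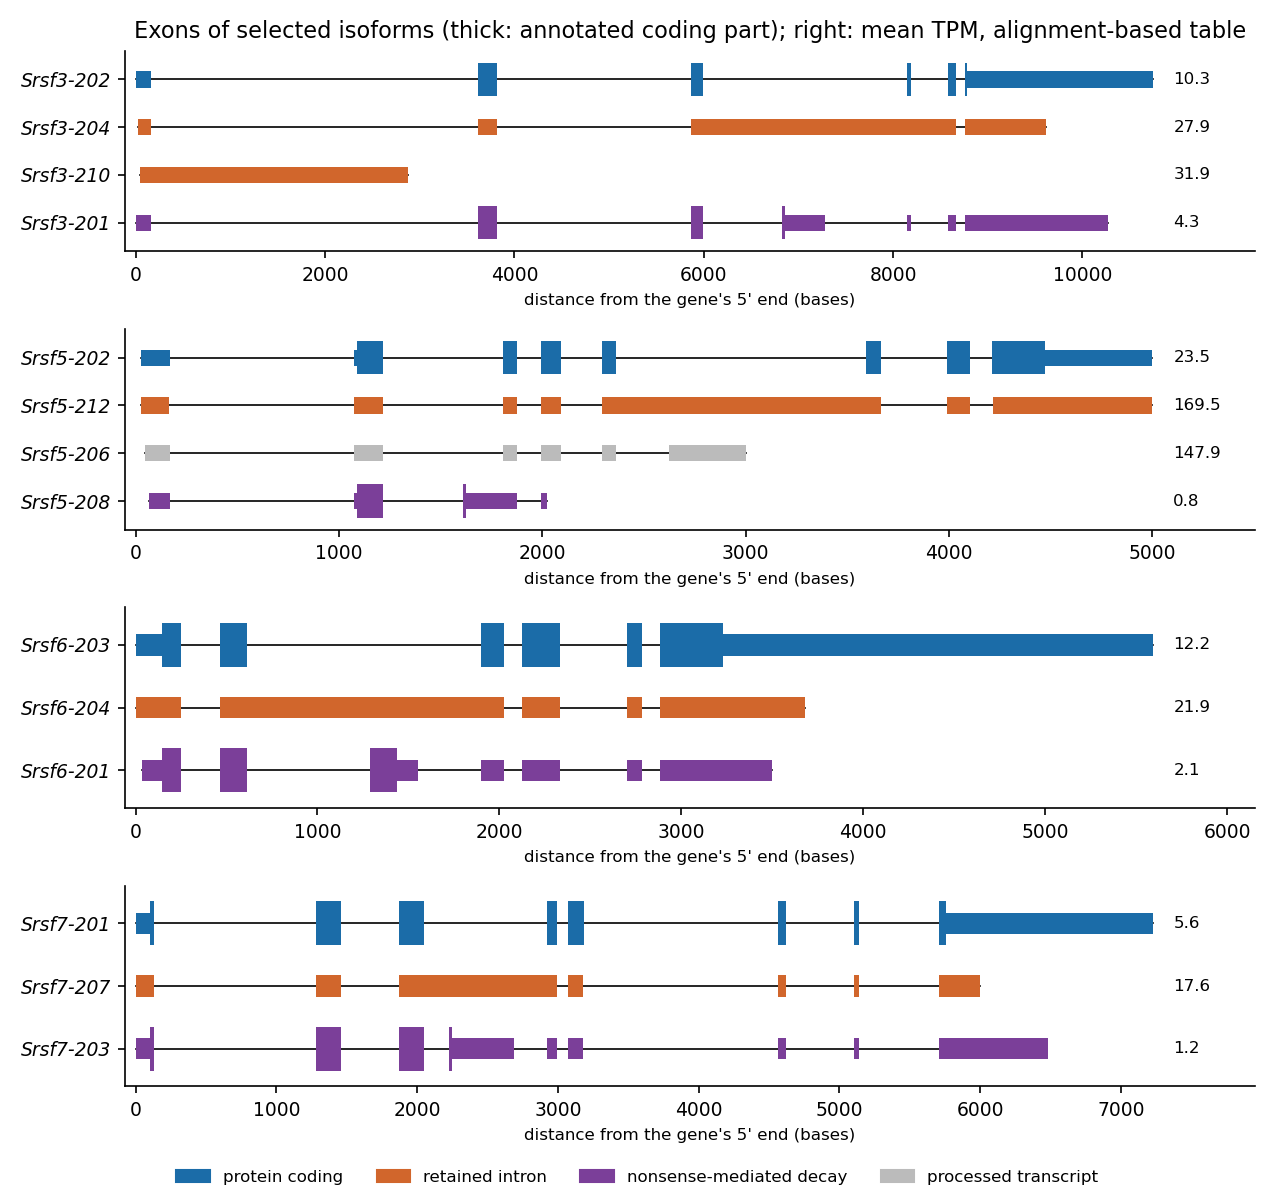
Exons of the leading coding, retained-intron and decay-type isoforms of Srsf3, Srsf5, Srsf6 and Srsf7, with Srsf3-204 and the processed Srsf5-206 added, as distance in bases from the 5′ end of each gene, with coding parts drawn thick and the mean TPM of the alignment-based table at the right. The extra exon of the decay-type isoform lies inside an intron kept by Srsf3-204, Srsf6-204 and Srsf7-207, while Srsf3-210 ends before that exon.

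Isoforms annotated as targets of nonsense-mediated decay were rare next to coding isoforms in most SR genes. Their median share was 3.52% ± 1.01 (SD over 3 libraries) over the 9 genes that have one, and 5.87% over 2884 genes of the genome with both types. Of 9 genes 7 were called below an equal balance with coding isoforms and 0 above, also without adjustment, against 61.4% below and 2.00% above among 2596 genes tested. The median log2 ratio was -2.62 over the 9 genes and -2.90 over all genes tested, so the members' share of calls and their median lay near those of all genes. The median of the 9 was the same with Srsf9 at its bound. Srsf10 has no isoform of this type.

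Srsf5 had 0.69, 0.70 and 1.07 TPM in Srsf5-208 and a log2 ratio of -5.52 ± 0.28 (SE; adjusted p = 0.00045, limma treat). Srsf2 had -4.03 ± 0.38 (adjusted p = 0.0021), from 1.22, 0.63 and 1.68 TPM in Srsf2-204. In the alignment-free table, described further on, the order of both was turned, with -4.56 for Srsf5 and -6.45 for Srsf2, whose decay-type isoforms were there at 0.649 TPM in replicate 1 and at most 0.0001 in the other libraries, so that its ratio rests on the pseudocount. Srsf6-201 had 2.85, 1.49 and 2.10 TPM and Srsf7-203 had 1.50, 0.98 and 1.24, with log2 ratios of -2.47 ± 0.25 and -2.33 ± 0.25 (adjusted p = 0.0045 and 0.0064, limma treat). These 4 genes kept their call under each alternative tried. Srsf9-205 is listed at 0 in all 3 libraries, so its fitted ratio rests on the pseudocount. At 3 counts per library its log2 ratio would be -3.12, which is an upper bound that covers counting error only. The alignment-free table gave Srsf9-205 9.52, 28.5 and 0 estimated counts and a mean log2 ratio of -1.68, above that bound. Srsf1-204 was at 0, 0.84 and 0.78 TPM, and the Srsf1 call (adjusted p = 0.032) was lost without replicate 3 (adjusted p = 0.061, limma treat) and with no filter on low values (0.11). Srsf11 had -2.62 ± 0.49 (adjusted p = 0.025), a call lost without replicate 2 or 3 (adjusted p = 0.091 and 0.094, limma treat) and with no filter on low values (0.078).

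Srsf3 and Srsf4 were called neither. Srsf3-201 had 4.83, 3.09 and 5.09 TPM against 15.2, 6.01 and 9.82 in the coding isoform, a log2 ratio of -1.17 ± 0.28 (SE). Srsf4 stood apart with 6.31, 5.14 and 5.97 TPM against 6.08, 7.11 and 9.23, a log2 ratio of -0.34 ± 0.27. Its decay-type share of 31.7% ± 2.3 (SD, n = 3) was the highest of the family, and 276 of 2884 genes had a share at or above it. By expected counts the share was 12.5% ± 0.9, with 789 of 2884 genes at or above it, and in the alignment-free table it was 55.6% ± 5.3 of TPM. With expected counts 8 genes were below, Srsf4 now among them (-1.81, adjusted p = 0.035, limma treat), and 0 above, where 70.5% and 2.27% of all genes tested were.

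In Srsf3, Srsf4, Srsf6, Srsf7, Srsf9 and Srsf11 the early stop lies in an extra exon, one that overlaps no exon of the leading coding isoform. In Srsf3, Srsf6, Srsf7 and Srsf11 each such exon lies inside a retained-intron isoform, so reads within it are shared between both classes. The stop exon of Srsf4, with 188 bases in Srsf4-204 and 207 in Srsf4-203, lies outside Srsf4-201, its single retained-intron isoform. That of Srsf9-205 has 358 bases, and Srsf9 has no retained-intron isoform. The stop-carrying exons of Srsf1-204, Srsf2-204 and Srsf5-208 overlap an exon of the leading coding isoform. They lie within Srsf1-203, Srsf2-203 and Srsf5-209, so reads there are also shared between classes. The stop of Srsf2-204 is not an early one: it is the stop of the coding isoform Srsf2-201. It lies 113 bases before the last exon junction of Srsf2-204. In Srsf3 the extra exon has 456 bases at chr17:29039454-29039909 and lies within Srsf3-204. In Srsf6 it has 268 bases at chr2:162932815-162933082 and lies within Srsf6-204. In Srsf7 it has 460 bases at chr17:80204622-80205081 and lies within Srsf7-206 and Srsf7-207. In Srsf11-212, the least abundant decay-type isoform of Srsf11 with a mean of 0.827 TPM, it has 117 bases at chr3:158023243-158023359 and lies within Srsf11-213. The stop of Srsf11-210 and Srsf11-206, with means of 1.17 and 1.05 TPM, lies in another exon of 109 bases at chr3:158024123-158024231. This exon lies within a longer exon of Srsf11-203, which had a mean of 28.3 TPM, and the exons share an edge. Srsf3-201 reads 124 codons before its stop where the leading coding isoform has 164, Srsf6-201 reads 135 of 339, and Srsf7-203 reads 137 of 238. The stop lies 548, 534 and 699 bases before the last exon junction in these 3 isoforms. The 27 bases around the early stop of these isoforms and of Srsf11-212 are shown with the stop codon in capitals.
Srsf3-201 stop: ctcaccaccctcTGAatctgcattagc
Srsf6-201 stop: gccttttgccatTAGacgcagggtgat
Srsf7-203 stop: agtcagtcgcctTGAttcagaatgtca
Srsf11-212 stop: gcttttgaaagtTGAgagcacacccct
Beside these decay-type isoforms the isoforms that hold the same exon inside a kept intron were several times more abundant. Srsf6-204 had a mean TPM of 21.9 where Srsf6-201 had 2.15, Srsf7-207 had 17.6 where Srsf7-203 had 1.24, and Srsf3-204 had 27.9 where Srsf3-201 had 4.34.

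Processed transcripts, which have neither a coding frame nor a retained-intron label, formed a large part of the TPM of Srsf5 and Srsf10. They made up 38.4%, 48.9% and 44.8% of Srsf5 and 70.9%, 70.3% and 61.7% of Srsf10 in replicates 1, 2 and 3. By expected counts the shares were lower, at 15.3% ± 2.3 (SD, n = 3) for Srsf5 and 31.2% ± 4.0 for Srsf10. Srsf9 had 22.7% ± 9.1 of its TPM in this class. In the alignment-free table the shares of TPM were 51.3% ± 4.9 for Srsf5, 72.4% ± 3.6 for Srsf10, 53.6% ± 34.5 for Srsf9 and 31.8% ± 2.2 for Srsf3. Shares of this class were not set against those of all genes. Srsf5-206 alone had 135, 129 and 180 TPM. Its last exon of 376 bases lies wholly inside intron 5, the same intron that Srsf5-212 keeps. Srsf10-207 led Srsf10 with 27.0, 13.8 and 13.3 TPM, and its last exon of 390 bases lies inside intron 2 of 5 of the leading coding isoform. It was highest in replicate 1, as was the leading coding isoform Srsf10-204, with 9.97, 5.32 and 4.88 TPM.

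The alignment-free table, whose column layout is that of a method without a genome alignment, gave the same picture for some genes and another for others. Its median retained-intron share was 54.6% ± 3.2 (SD over 3 libraries), with a median of 41.9% over 7011 genes. Srsf7 with 78.8% ± 5.0 (SD, n = 3), Srsf11 with 76.5% ± 2.8 and Srsf6 with 65.3% ± 3.3 had the highest shares there, while Srsf3 had 56.9% ± 3.7. Of the 7011 genes 828, 925, 1574 and 2153 had a mean share at or above those of Srsf7, Srsf11, Srsf6 and Srsf3. There 5 genes were called above an equal balance and 0 below, against 21.6% above and 18.5% below among 6771 genes tested. Srsf3, Srsf5, Srsf7 and Srsf11 were called above in both tables, with log2 ratios of 2.76, 2.59, 2.11 and 2.34 in the alignment-free table. The fifth was Srsf4. Its log2 ratio was 2.06 in the alignment-free table (adjusted p = 0.0052) and -0.55 in the alignment-based one, and the difference of 2.61 ± 0.19 (SE) itself passed the test (adjusted p = 0.011, limma treat; higher in 3 of 3 libraries). Srsf4 was the only gene of 8 called (1 higher, 0 lower), against 7.32% called higher and 2.31% lower among 5669 genes tested, and without replicate 1 it was not called (adjusted p = 0.072, limma treat). For Srsf11 the difference was -1.30 ± 0.09 and did not pass (adjusted p = 0.090, limma treat).

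Both parts of the Srsf4 balance differed between the tables. The coding isoform Srsf4-202 had 6.08, 7.11 and 9.23 TPM in the alignment-based table and 1.78, 2.39 and 2.34 in the alignment-free one, where Srsf4-201 stood at 10.9, 6.85 and 10.8. In the alignment-free table the decay-type isoforms of Srsf4 held 20.2, 9.65 and 15.6 TPM, and the log2 ratio to coding isoforms was 2.69 (adjusted p = 0.0056, limma treat). There Srsf4 alone (1 gene) was above and 5 were below, against 5.63% above and 51.6% below among 3038 genes tested. Srsf9 and Srsf11 were not called there (adjusted p = 0.16 and 0.65, limma treat). Srsf4 overlaps on its own strand the unconfirmed gene A930004J17Rik over 4610 bases, which had 22.2, 11.2 and 16.9 TPM, and on the opposite strand Gm12992, with 2.71, 1.77 and 1.90. How reads of these genes bear on the Srsf4 isoforms was not tested.

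Single isoforms diverged further. Srsf3-209, a processed transcript, had 3.60, 3.22 and 2.78 TPM in the alignment-based table and 50.1, 21.3 and 34.6 in the alignment-free one, where it led the gene. Srsf11-210, a decay-type isoform of 397 bases, had 2.63, 0.25 and 0.63 TPM in the first and 41.5, 10.9 and 20.5 in the other. Over the 85 isoforms 8 with at least 1 TPM differed by more than 4-fold between the tables, and the leading isoform was the same in 5 of 10 genes. Srsf2-203, Srsf6-204 and Srsf7-207 led their genes in both tables.

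**Figure D4:**
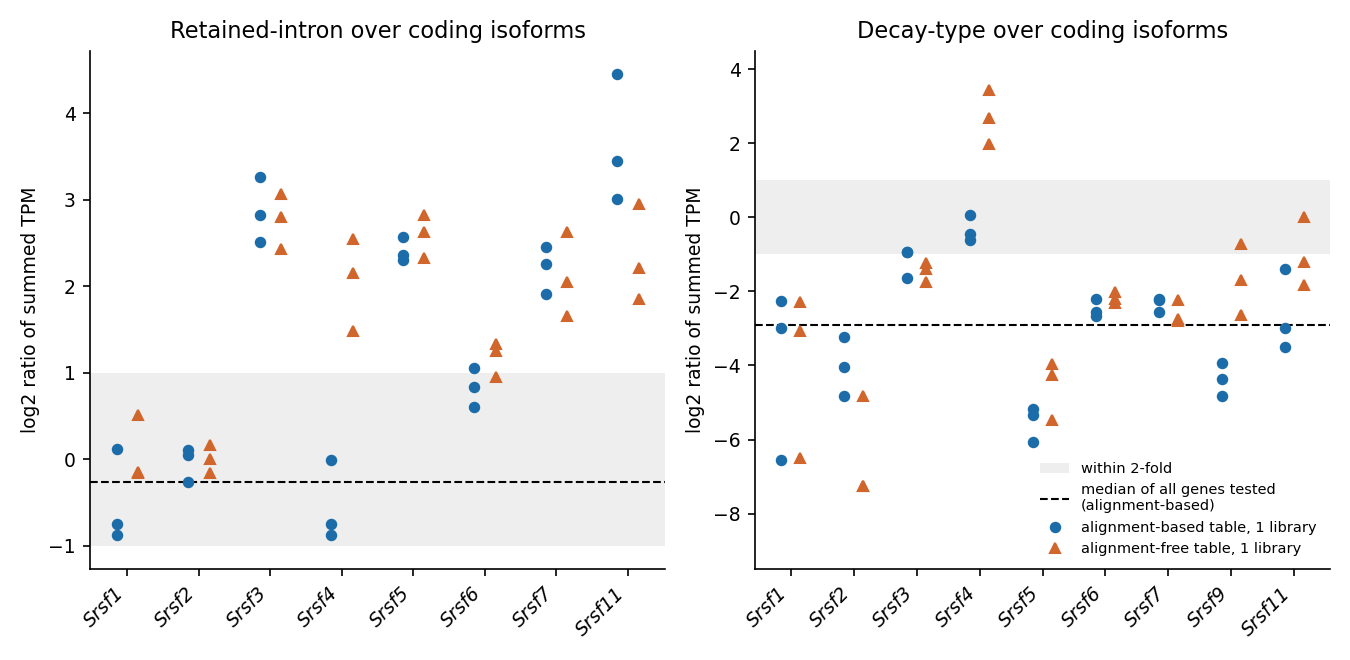
Log2 ratio of summed TPM in retained-intron (left) and decay-type (right) isoforms to coding isoforms, 1 point per library, in the alignment-based (circles) and alignment-free (triangles) tables. The shaded band marks a balance within 2-fold and the dashed line the median of all genes tested (-0.27 and -2.90); the mean of Srsf4 is negative in the alignment-based table (-0.55 and -0.34) and positive in the alignment-free one (2.06 and 2.69).

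Some values share sequence with neighbours or copies. Srsf2 lies wholly within the span of Mettl23 on the opposite strand and also overlaps Mfsd11 there by 655 bases, with 2.69, 1.22 and 1.82 TPM for the first and 10.1, 11.1 and 8.38 for the other. The handling of strand in counting is not given in the sources used here, so reads of these opposite genes cannot be told apart from those of Srsf2. Srsf11 overlaps on its own strand the unconfirmed gene Gm43362, with 21.2, 10.4 and 14.3 TPM. Processed pseudogenes at least 95% identical over 200 bases exist for Srsf3, Srsf5 and Srsf10. They drew at most 30.2 expected counts per library for Srsf5 and fewer for the others. Gm12355, a protein-coding copy of Srsf3, drew at most 3.76. Reads divided between a gene and its copy remain uncertain by such amounts or more, since the division is an estimate. Overlapping genes on the opposite strand drew more. Gm12992, identical to Srsf4 over 1447 bases, drew 151, 157 and 149 expected counts, beside 478, 684 and 791 for Srsf4. Mfsd11, identical to Srsf2 over 289 bases, drew 330, 539 and 387, beside 1002, 1348 and 1179 for Srsf2. These counts are for whole genes.

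Between the libraries, replicate 2 was the lowest for most SR genes. On log2 CPM, counts scaled for library size, the median SD over 3 libraries was 0.206 for the 10 genes and 0.272 for all 12931 expressed genes. Replicate 2 was below the mean of the 3 libraries for 9 of 10 genes and the lowest for 8. The order of libraries was not counted over all genes, so these counts have no share to be set against. Srsf1 varied most, with log2 CPM of 5.25, 4.41 and 5.08 in replicates 1, 2 and 3 and an SD of 0.44, and Srsf2 least, with 6.21, 6.25 and 6.11 and an SD of 0.08. Srsf10 had an SD of 0.32, with replicate 1 at 0.37 above its mean. Without replicate 2 the median SD of the 10 genes was 0.0733, with no value for all genes to set beside it. Replicate 2 was also the library made from the least RNA, and the part of that amount in the difference was not tested.

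**Figure D5:**
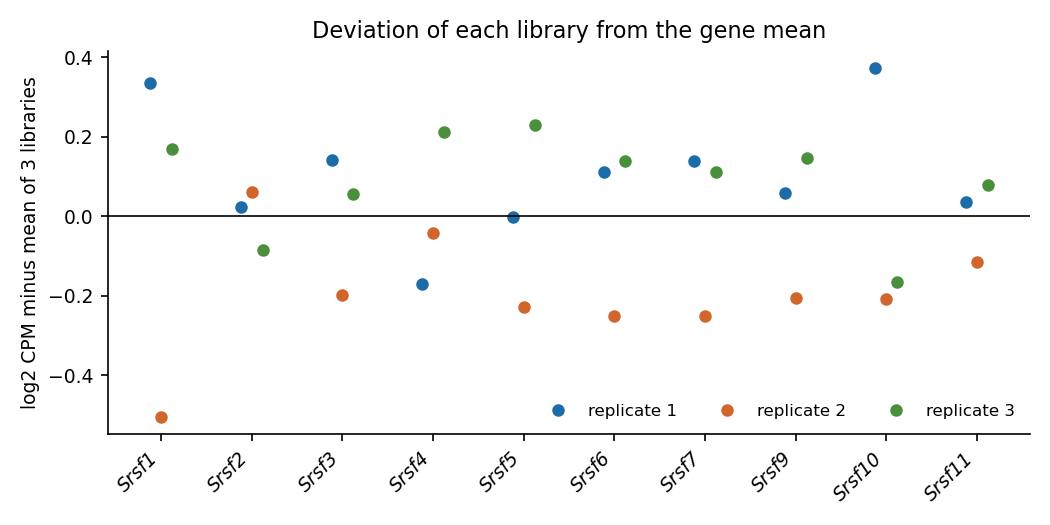
Deviation of log2 CPM of each library from the mean of the 3 libraries for every SR gene. Replicate 2 lies below 0 for 9 of 10 genes, Srsf2 being the exception, and lowest for Srsf1.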

How the data were processed

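The members and the gene lists were chosen with earlier results of these data known. Per the file headers and the labels, values refer to mm10 and annotation M21. Which programs made the tables is not given in the sources used here, nor is the handling of strand. The authors deposited expected counts and TPM per gene and per transcript, here called alignment-based tables. They also deposited estimated counts and TPM per transcript, here called the alignment-free table. Both names were inferred from the column layouts. Expected counts deposited by the authors are fractional and were rounded before count-based steps.

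Log2(TPM + 0.1), which understates differences of low genes, was tested with limma 3.58.1 (treat, trended prior, 2-fold band, two-sided) against the reference gene for genes of mean TPM at least 0.1 or listed. Isoform log2 ratios were tested likewise for genes with both classes and a mean TPM of at least 1. P-values were adjusted by Benjamini-Hochberg over all genes tested. Log2 CPM came from edgeR 4.0.16 (TMM, filterByExpr with a minimum count of 10, prior count of 2). Tests were checked on simulated data. Copies were sought with blastn 2.17.0; sequences come from the M21 transcripts. All 10 members were named; from each list the 3 genes of highest mean TPM and up to 3 called lower. All 3 libraries entered as 1 group. Alternatives covered pseudocount, filter, band, reference, table, unit, scaling by DESeq2 and leaving out each library.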

Additional observations from a re-analysis of the deposited data

How the results depend on the processing

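The number of SR genes called higher than the reference gene was 8 and became 5 with a band of 4-fold and 4 with reference genes from a mean TPM of 5. The number called lower was 0 and became 1, Srsf9, with no filter on low values, no band, or reference genes from a TPM of 5. The count with retained-intron isoforms below coding isoforms became 1 with expected counts, and the count with decay-type isoforms above became 1 in the alignment-free table. There Srsf4 reversed in both balances, to 2.06 and 2.69. The balance differing between tables was called for 1 gene, for 4 with no band, and for 0 to 1 when each library was left out. The median retained-intron share of 54.8% became 65.6% with expected counts, and the median decay-type share of 3.52% became 1.79%. The median SD ranged from 0.0733 to 0.217 over the left-out libraries. No paired analysis was possible because there is 1 group. Srsf9 rests on at most 50 expected counts per library, which limits its isoform values.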
